A study of Rattus norvegicus with 9 samples.

Results

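Homeostatic astrocyte genes encode the proteins with which resting astrocytes clear glutamate, couple to each other, and move water. Expression of 10 such genes, Aqp4, Slc1a2, Slc1a3, Gja1, Gjb6, Glul, Aldh1l1, Aldoc, Sox9, and S100b, was examined in rat brain after cerebral ischemia and reperfusion (I/R) with or without Danhong injection (DHI). They were taken by gene name from the array annotation, which holds 16 probes for them among 30367 non-control probes (10 of 20489 different gene names among the tested probes), and 1 probe per gene, the one with the highest mean log2 signal over the 9 arrays, represents the gene. All 10 genes were measured well above background on all 9 arrays by each of their probes, so 16 of 16 probes entered the 23747 probes that were tested.

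RNA came from hemispheres of male Sprague Dawley rats at day 14, the infarcted hemisphere in operated rats, with 3 rats and 3 one-color Agilent SurePrint G3 Rat arrays in each of 3 groups. Rats of the I/R group had undergone 2 h of middle cerebral artery occlusion by a nylon filament followed by reperfusion. Rats of the DHI group had the same surgery and then received DHI, an injectable herbal medicine, daily through the tail vein for 14 days. Sham rats had the artery exposed without a filament and received solvent. The rats' age and the solvent treatment of the I/R rats were not given in the sources used here. Each sample is a whole piece of tissue with all its cell types, so that fewer cells of a type and less RNA per cell cannot be told apart.

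Astrocytes take up synaptic glutamate through the transporters GLAST (Slc1a3) and GLT-1 (Slc1a2) and turn it into glutamine with glutamine synthetase (Glul). Aquaporin-4 (Aqp4) is the water channel of the endfeet that astrocytes place around blood vessels, and the connexins Cx43 (Gja1) and Cx30 (Gjb6) form the gap junctions that join astrocytes into a network. After injury, astrocytes become reactive, with more intermediate filament protein such as GFAP, and the genes of the resting state need not follow that change.

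Values are processed signals on the log2 scale after each array's 75th percentile was subtracted, so that a value of a probe can be compared between arrays but not with that of another probe. A gene was called at the study's thresholds, an unadjusted p under 0.05 in limma with a fold change over 1.5, and the Benjamini-Hochberg adjusted p over all probes is given beside it. The 75th percentile of the signal ranged from 1816.3 to 3464.4 over the 9 arrays, 75.2% to 78.9% of the probes of an array were well above background, and 0 spots were saturated. The Sham and I/R arrays lay on 1 slide and the DHI arrays on another, so slide and DHI cannot be told apart. The array DHI 1 stood apart from the other DHI arrays: 83.5% of all tested probes were nearer the I/R mean than the Sham mean on DHI 1, against 18.5% on DHI 2 and 23.5% on DHI 3. Counts of called genes in DHI versus I/R are therefore given with and without DHI 1.

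The homeostatic genes moved in opposite directions after I/R. In I/R versus Sham, 5 of the 10 genes were called, where 43.1% of all tested probes were called. Aqp4, Gja1, and Aldh1l1 rose and Slc1a2 and Aldoc fell, against 20.8% of all probes called higher and 22.3% called lower. Aqp4 and Gja1 also had an adjusted p under 0.05, so 2 of 10 passed the stricter rule, which 31.5% of all probes passed. All groups shared a model, so the spread of the DHI arrays enters these p values. Without DHI 1, the limma adjusted p was 0.0069 for Slc1a2, 0.0172 for Aldoc, and 0.0381 for Aldh1l1. It was 0.00424 for Aqp4 and 0.00513 for Gja1. At the unadjusted thresholds, 46.0% of all probes were then called. DHI 1 was left out with its values known. The median log2 fold change of the 10 genes was 0.23, while that of all tested probes was -0.10. For 6 of the 10 genes all I/R arrays lay to one side of all Sham arrays, against 62.5% of all probes. The share of the 10 genes that changed was thus close to the background of this comparison, and what follows is a description of single genes.

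**Figure D1:**
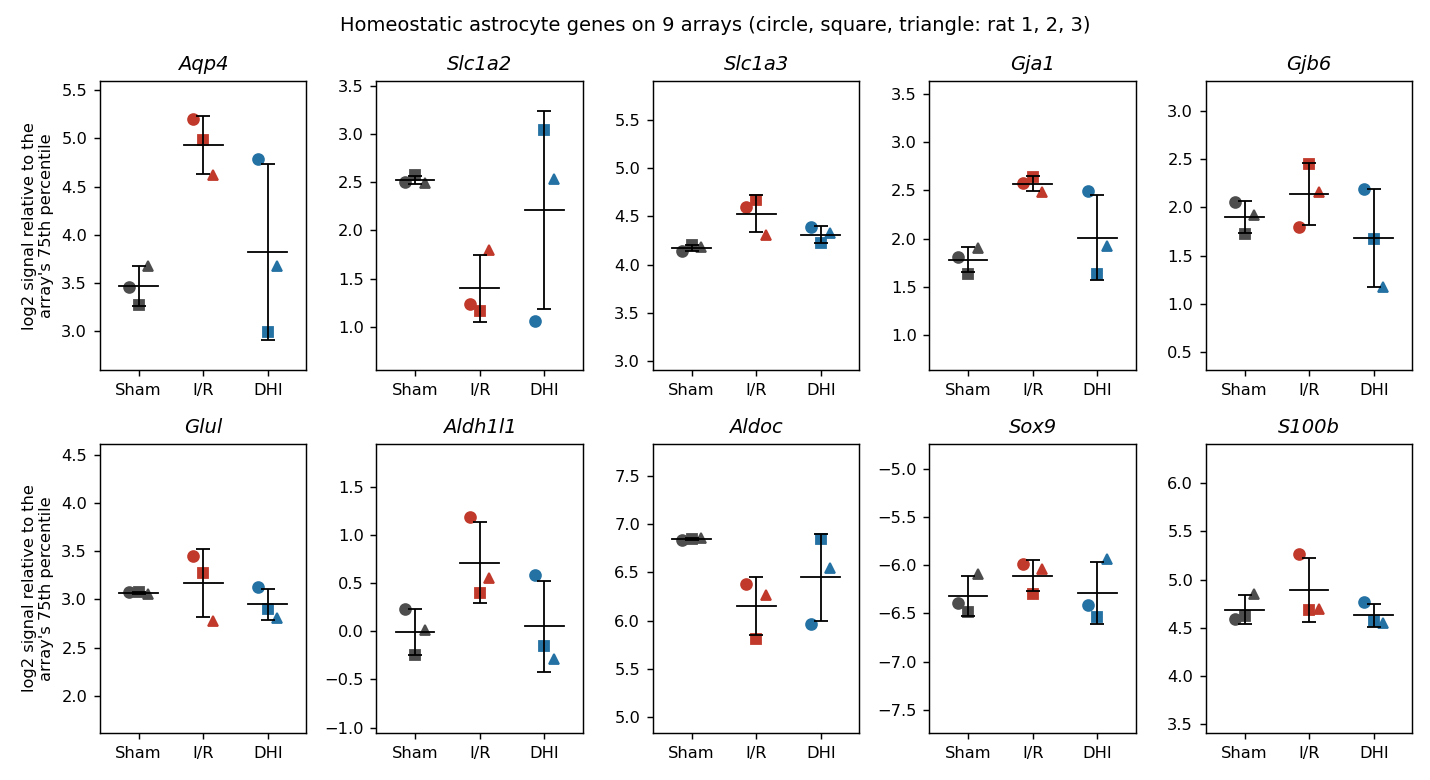
Scaled log2 signal (y axis, with the array's 75th percentile at 0 and the same span in each panel) for the representative probe of each of the 10 genes in Sham, I/R, and DHI (x axis). Circles, squares, and triangles are rats 1, 2, and 3 of a group, and the line with bars is the mean ± SD of 3 arrays. The I/R arrays lay above all Sham arrays for Aqp4 and Gja1 and below them for Slc1a2 and Aldoc, and the circle of DHI sits beside the I/R arrays for these 4 genes.

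Aqp4 had the largest rise of the 10 genes. Its representative probe (chr18:6626431-6626490, minus strand, rn4) read 3.46, 3.27, and 3.68 on the Sham arrays, 5.20, 4.98, and 4.62 on the I/R arrays, and 4.79, 2.99, and 3.68 on the DHI arrays. All I/R arrays lay above all Sham arrays, DHI 1 lay within the I/R range, DHI 2 below all Sham arrays, and DHI 3 level with the highest Sham array. The log2 fold change in I/R versus Sham was 1.47 (SE 0.42, 2.76-fold, limma adjusted p = 0.0406). The other probes of Aqp4, at chr18:6629662-6629721 and chr18:6630285-6630344, rose by 1.29 (SE 0.28) and 1.40 (SE 0.31) on the log2 scale, so the 3 probes moved alike.

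Of the glutamate transporters, Slc1a2 fell and Slc1a3 was not called. GLT-1, the product of Slc1a2, carries most of the glutamate uptake of the adult forebrain. Its representative probe lies at chr3:87992261-87992320 (plus strand, rn4), and a second probe at chr3:87988366-87988425. The array annotation lists 1 RefSeq transcript for the former and 2 for the latter. The probe sequences are shown because they read different stretches of Slc1a2 and gave the same result, and the second Slc1a3 probe (chr2:58272281-58272340, minus strand) is set beside them as the transporter that was not called.
Slc1a2 representative probe: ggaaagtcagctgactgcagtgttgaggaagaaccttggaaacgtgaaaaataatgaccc
Slc1a2 second probe: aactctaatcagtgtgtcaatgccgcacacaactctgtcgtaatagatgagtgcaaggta
Slc1a3 second probe: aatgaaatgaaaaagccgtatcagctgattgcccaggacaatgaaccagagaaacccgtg

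The Slc1a2 probe read 2.50, 2.57, and 2.49 in Sham, 1.24, 1.16, and 1.80 in I/R, and 1.06, 3.04, and 2.53 in DHI. All I/R arrays were below all Sham arrays, DHI 1 was the lowest of the 9 arrays, and DHI 2 was the highest. The log2 fold change in I/R versus Sham was -1.12 (SE 0.46, 2.17-fold lower, limma adjusted p = 0.0856), and the second probe gave -1.09 (SE 0.42, adjusted p = 0.0747). Slc1a2 was no longer called without any one of the Sham arrays, without I/R 1 or I/R 2, or without DHI 3, while its value stayed between -1.32 and -1.0 whichever of the 9 arrays was left out. Slc1a3 (chr2:58270245-58270304) read 4.14, 4.2, and 4.18 in Sham, 4.60, 4.67, and 4.31 in I/R, and 4.39, 4.22, and 4.33 in DHI. The I/R arrays were above all Sham arrays, and the difference of 0.36 (SE 0.15, adjusted p = 0.0841) had an unadjusted p of 0.0396 but a fold change of 1.28, below the threshold. Its second probe gave 0.31 (SE 0.20) and was not called.

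Within an array, the difference between Slc1a2 and Slc1a3 is not moved by a scaling that shifts all probes of the array by the same amount. This difference was -1.64, -1.63, and -1.69 in Sham and -3.35, -3.51, and -2.51 in I/R, so that Slc1a2 decreased relative to Slc1a3 on all 3 I/R arrays. In DHI it was -3.32, -1.18, and -1.80. The shift of -1.47 in I/R versus Sham had a two-sided exact permutation p of 0.1, which is the smallest that 3 against 3 arrays allow (0.3 after Benjamini-Hochberg adjustment over 9 such tests). The shift of 1.03 in DHI versus I/R had an exact permutation p of 0.2, and it ranged from 0.57 without DHI 2 to 1.64 without DHI 1 (exact permutation p = 0.1, the smallest that 2 against 3 arrays allow).

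Glul, which makes glutamine from the glutamate taken up, was not called. Its probe, for which the files used here give no genome position, read 3.08, 3.08, and 3.06 in Sham, 3.45, 3.27, and 2.78 in I/R, and 3.13, 2.90, and 2.81 in DHI. The I/R arrays lay on both sides of the Sham arrays, and the log2 difference was 0.10 (95% interval -0.35 to 0.55).

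Of the connexins, Gja1 rose and Gjb6 was not called. Gja1, at chr20:35422026-35422085, read 1.81, 1.63, and 1.90 in Sham, 2.58, 2.64, and 2.48 in I/R, and 2.49, 1.63, and 1.92 in DHI. The groups Sham and I/R were far apart relative to their spread, and the rise was 0.79 (SE 0.22, 1.73-fold, limma adjusted p = 0.0405). Gjb6, at chr15:36177768-36177827, read 2.06, 1.72, and 1.92 in Sham, 1.80, 2.45, and 2.16 in I/R, and 2.19, 1.67, and 1.17 in DHI, with overlapping groups and a difference of 0.24 (95% interval -0.41 to 0.89) in I/R versus Sham. The within-array difference of Gja1 and Gjb6 was -0.25, -0.09, and -0.02 in Sham and 0.78, 0.19, and 0.32 in I/R. Its shift of 0.55 again had the smallest exact permutation p that the design allows, 0.1, which is 0.3 after adjustment over the 9 tests. One connexin passing the thresholds and the other not does not show that they differ.

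Aldh1l1 and Aldoc, both enzymes of astrocyte metabolism and both widely used astrocyte markers, went in opposite directions. Aldh1l1, a cytosolic enzyme of folate metabolism, read 0.23, -0.25, and 0.01 in Sham, 1.18, 0.40, and 0.55 in I/R, and 0.58, -0.15, and -0.29 in DHI. Its rise of 0.72 (SE 0.30, 1.64-fold, limma adjusted p = 0.0893) separated the groups, and the call was lost without Sham 2 or Sham 3, without I/R 1 or I/R 3, and without DHI 2. With each of the 9 arrays left out in turn its value stayed between 0.48 and 0.87. Aldoc, the glycolytic aldolase C, at chr10:64308833-64308892 (minus strand), read 6.84, 6.85, and 6.86 in Sham, 6.38, 5.81, and 6.27 in I/R, and 5.96, 6.85, and 6.55 in DHI. The Sham arrays lay close together and above all I/R arrays, and the log2 fold change was -0.70 (SE 0.25, 1.62-fold lower, adjusted p = 0.0622). It was not called without Sham 1, Sham 2, Sham 3, or I/R 2. The second Aldoc probe (chr10:64309543-64309602) is printed because it gave a lower value, -0.83 (SE 0.26), with an adjusted p of 0.0459.
Aldoc second probe: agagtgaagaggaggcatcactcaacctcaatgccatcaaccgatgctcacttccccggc

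Aldoa, the aldolase of many cell types including neurons, served as a comparison for Aldoc. It read 4.06, 4.27, and 4.19 in Sham, 2.81, 2.94, and 3.66 in I/R, and 3.39, 4.24, and 4.0 in DHI, a fall of 1.04 on the log2 scale in I/R versus Sham (SE 0.29, limma adjusted p = 0.0405). The difference Aldoc minus Aldoa was 2.78, 2.58, and 2.67 in Sham, 3.57, 2.87, and 2.61 in I/R, and 2.58, 2.61, and 2.54 in DHI. Its shift in I/R versus Sham was 0.34 (exact permutation p = 0.3), and it ranged from 0.06 without I/R 1 to 0.54 without I/R 3. With 3 against 3 arrays this test could not have passed 0.05, so whether the aldolases fell unequally is not settled by it.

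Sox9 and S100b were not called. Sox9, a transcription factor that marks astrocyte nuclei, was measured by a dim probe (chr10:102393822-102393881) with signals of 19.6 to 52.5 over the 9 arrays, and its difference was 0.21 (95% interval -0.26 to 0.68). It read -6.39, -6.49, and -6.09 in Sham, -5.99, -6.30, and -6.04 in I/R, and -6.41, -6.54, and -5.94 in DHI, so the groups overlapped. S100b, a calcium-binding protein of astrocytes that oligodendrocytes also make, read 4.59, 4.62, and 4.85 in Sham, 5.27, 4.68, and 4.70 in I/R, and 4.77, 4.57, and 4.55 in DHI. Its probes disagreed in sign, with 0.20 (SE 0.20) for the representative probe at chr20:12791789-12791848 and -0.46 (SE 0.39) for the other at chr20:12791899-12791958, and neither was called.

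**Figure D2:**
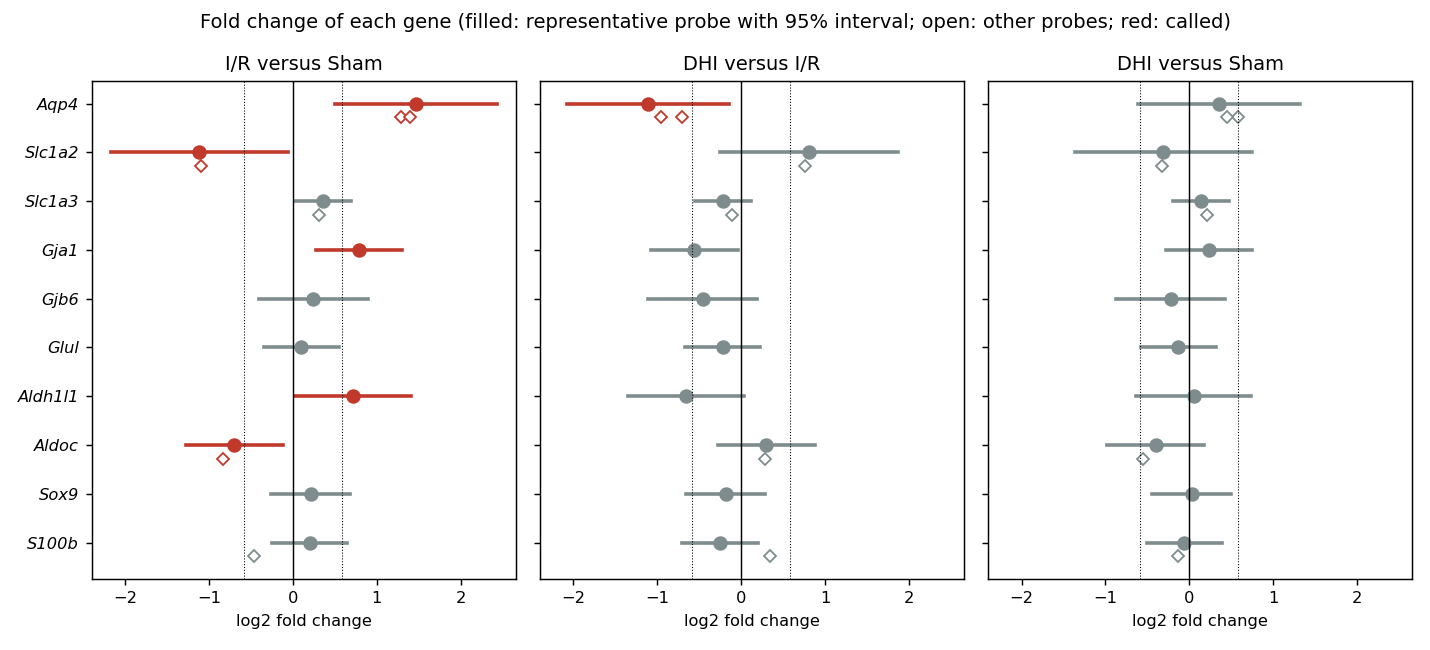
Log2 fold change (x axis) of the 10 genes (y axis) in the 3 comparisons, from limma over 9 arrays. Filled circles are representative probes with 95% intervals, open diamonds are further probes of the gene, red marks those called, and dotted lines mark a 1.5-fold change. In I/R versus Sham 5 genes were called, in DHI versus I/R Aqp4, and in DHI versus Sham 0.

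Between DHI and I/R, 1 gene of 10 was called, where 21.9% of all tested probes were called and 10.5% were called lower. Aqp4 fell by 1.11 on the log2 scale (SE 0.42, 2.16-fold), with a limma adjusted p of 0.196. Its other probes fell by 0.71 (SE 0.28) and 0.95 (SE 0.31), and both were called as well. At an unadjusted p under 0.05 alone there were 2 genes, Aqp4 and Gja1, with Gja1 at -0.56 (SE 0.22, 1.47-fold lower). Of all 23747 tested probes, 6035 had such a p in this comparison. Aldh1l1 was at -0.66 (SE 0.30), Gjb6 at -0.46 (SE 0.28), Slc1a2 at 0.81 (SE 0.46, 95% interval -0.25 to 1.87), and Aldoc at 0.30 (SE 0.25), and none of these was called. With an adjusted p under 0.05, 0 of 10 genes passed, against 0.00421% of all probes. For 0 of the 10 genes did the DHI and I/R arrays lie apart, against 9.54% of all probes. The median of the 10 genes was -0.24 and that of all tested probes 0.10. Without scaling between arrays the median of all tested probes moved by -0.46 to -0.36, and 8 of the 10 genes were then called lower, where 29.8% of all probes were called lower (7079 lower and 357 higher, against 2490 and 2721 with scaling). Relative to the median of all probes, the values were as before, with Aqp4 at -1.22 and Slc1a2 at 0.71 under both settings.

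The DHI arrays did not lie together. On DHI 1, 8 of the 10 genes were nearer the I/R mean than the Sham mean, among them all 5 genes called in I/R versus Sham. On DHI 2, 10 of 10 genes were nearer the Sham mean, and on DHI 3, 9 of 10. Of all tested probes, 83.5% were nearer the I/R mean on DHI 1, 18.5% on DHI 2, and 23.5% on DHI 3. The lean of each array was thus not particular to the 10 genes. Without DHI 1, 5 of the 10 genes were called in DHI versus I/R, where 45.2% of all probes were called. Aqp4 then fell by 1.60, Aldh1l1 by 0.93, Gja1 by 0.80, and Gjb6 by 0.72 on the log2 scale, Slc1a2 rose by 1.38, and these 5 had a limma adjusted p between 0.00566 and 0.0481, a rule that 40.1% of all probes then passed. Aldoc was at 0.55 (unadjusted p = 0.0294) and fell short of the fold threshold. Leaving out DHI 1 was a choice made with its values known, and it leaves 2 arrays in the group. Aqp4 itself was not called in DHI versus I/R without DHI 2, DHI 3, I/R 1, or I/R 2, where its log2 fold change ranged from -1.09 to -0.70.

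In DHI versus Sham, 0 of the 10 genes were called, where 3.58% of all tested probes were called. An unadjusted p under 0.05 in limma was found for 0 genes, against 1294 of the 23747 tested probes. With the methods' t-test the count was also 0, where 1.89% of all probes were called. Without DHI 1 it was 0 as well, against 3.50% of all probes. Without DHI 2 it was 1, with Aldoc at -0.60, where 10.6% of all probes were called. The log2 fold changes ranged from -0.40 (Aldoc) to 0.35 (Aqp4), and the adjusted p from 0.709 to 0.959. Without DHI 1 they ranged from -0.48 (Gjb6) to 0.27 (Slc1a2). The intervals were wide, for Aqp4 from -0.61 to 1.32 and for Slc1a2 from -1.36 to 0.75, so a fall of Slc1a2 of the size seen in I/R was within its interval. All DHI arrays lay above all Sham arrays for 1 gene, Slc1a3, where the groups were apart for 18.6% of all probes. The comparisons share arrays, since each group enters 2 of them.

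**Figure D3:**
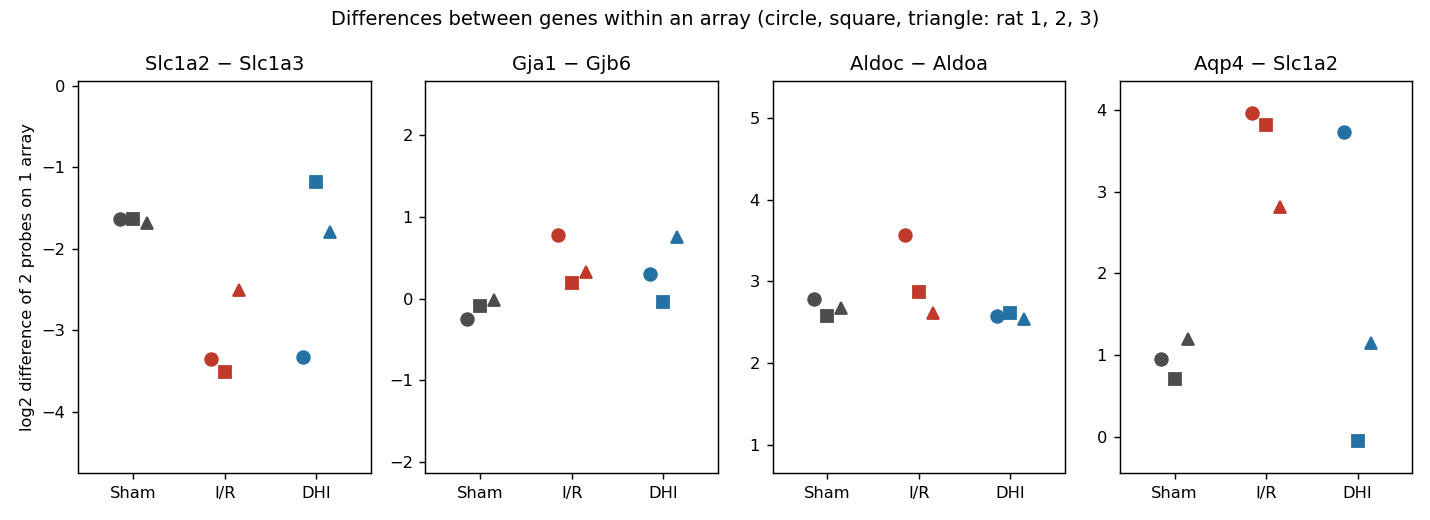
Log2 difference between the representative probes of 2 genes on the same array (y axis) in Sham, I/R, and DHI (x axis), with the same span in each panel. Circles, squares, and triangles are rats 1, 2, and 3 of a group. Slc1a2 minus Slc1a3 ranged from -3.51 to -2.51 on the I/R arrays and from -1.69 to -1.63 on the Sham arrays, and the pair Aqp4 and Slc1a2, chosen after their values were seen, is a description without a test.

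Aqp4 and Slc1a2, at the top and the bottom of the 10 fold changes, show the spread of the arrays most plainly. The difference Aqp4 minus Slc1a2 was 0.95, 0.70, and 1.19 in Sham, 3.96, 3.82, and 2.81 in I/R, and 3.73, -0.05, and 1.15 in DHI. Since the pair was picked for these values, no test is given. DHI 1 lay among the I/R arrays, DHI 3 among the Sham arrays, and DHI 2 below all Sham arrays.

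Genes of other cell types changed with the same groups. In I/R versus Sham, 20.8% of all tested probes were called higher and 22.3% lower. Of 12 neuron genes, 12 fell in I/R versus Sham (median log2 fold change -2.37), and their summed level on the log2 scale was 6.38 to 6.49 in Sham, 3.09 to 5.44 in I/R, and 4.78 to 6.48 in DHI. Of 11 genes of microglia and macrophages, 10 rose (median 3.61), with a summed level of 4.34 to 4.62 in Sham, 7.20 to 8.54 in I/R, and 4.77 to 7.71 in DHI. All 12 and all 11 were well above background on all 9 arrays. On DHI 1 the mean log2 value of the neuron genes was -0.60, against 1.41 on DHI 2 and 1.03 on DHI 3, and that of the microglia and macrophage genes was 2.92, against -0.36 and 0.20. Of 7 genes of pericytes and fibroblasts 6 rose, with a summed level of 2.39 to 3.20 in Sham and 6.14 to 6.83 in I/R. Of 10 oligodendrocyte genes 2 rose and 0 fell, so the rises were near the share of all probes. The part of these shifts in the values of the homeostatic astrocyte genes was not tested.

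Reactive astrocyte genes gave a different picture from the homeostatic ones. Of 19 tested, 18 rose in I/R versus Sham, with a median of 3.34, and 0 fell. Of all tested probes, 20.8% were called higher and 22.3% lower. Gfap, the intermediate filament protein of reactive astrocytes, had Sham values of -0.82 ± 0.31, I/R values of 2.81 ± 0.55, and DHI values of 0.80 ± 1.49 (SD, n = 3), a rise of 3.63 in I/R versus Sham (SE 0.67, limma adjusted p = 0.0396). The highest were C3, a complement component, at 6.15 (SE 1.08) and Cxcl10, a chemokine, at 6.14 (SE 1.34). The lowest were Clcf1, a cytokine, at -0.14 (SE 0.67), which was not called, and S1pr3, a sphingosine-1-phosphate receptor, at 0.92 (SE 0.24). Many of these genes are also made by microglia, macrophages, or fibroblasts. In DHI versus I/R 14 of the 19 fell (median -2.07), where 10.5% of all probes were called lower. Gfap was at -2.0 (SE 0.67, limma adjusted p = 0.196). Without DHI 1, 17 of the 19 fell, with Gfap at -2.86 (SE 0.33, adjusted p = 0.00231), where 19.1% of all probes were called lower.

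Related genes were read from lists of partners and functions, where rose and fell mean called at the unadjusted thresholds. Of the genes named as called below, Slc4a5, Slc17a6, Kcnj10, Nfia, Hes5, Rorb, and Dio2 had a limma adjusted p between 0.051 and 0.0766 in I/R versus Sham. Among 9 partners of Aqp4 at the endfoot and in water balance, 4 rose and 1 fell in I/R versus Sham (median 0.53). Of all tested probes, 20.8% were called higher in that comparison and 22.3% lower. Aqp1, a water channel best known from the choroid plexus, rose by 3.68 (SE 1.00) and Lama2, a laminin chain of the basement membrane, by 2.95 (SE 0.78). Of 5 choroid plexus genes, Folr1 (4.51, SE 1.34) and Slc4a5 (2.96, SE 1.16) were called higher, Slc4a5 on a probe that was well above background on 5 of the 9 arrays, and Ttr (2.89, SE 1.85), Clic6 (0.59, SE 1.18), and Kcne2 (-0.07, SE 0.90) were not called. The summed level of the 5 was -0.72 to 0.14 in Sham, 0.29 to 6.55 in I/R, and 2.92 to 7.10 in DHI. Ttr alone read 6.53 on I/R 3 and 7.05, 2.88, and 6.20 on the DHI arrays, so the sums on these arrays were nearly those of Ttr. The part of the choroid plexus genes in the value of Aqp1 was not tested. Agrn, the matrix protein agrin, was at 0.15 (SE 0.17). Under quantile normalization, without scaling, and in the authors' series table, 0 of the 9 genes fell. Of all probes, 24.1%, 16.2%, and 24.1% were then called lower. In DHI versus I/R 2 of the 9 fell and 0 rose, where 10.5% of all probes were called lower, and without DHI 1 5 of the 9 fell, where 19.1% were.

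Among 15 partners in the glutamate and glutamine cycle, 9 fell and 2 rose in I/R versus Sham, with a median of -1.21. Of all tested probes, 22.3% were called lower and 20.8% higher. The lowest were Slc17a6, a vesicular glutamate transporter of neurons, at -2.89 (SE 1.09) and Gls2, a glutaminase, at -2.81 (SE 0.66). The highest were the glutamine transporters Slc38a5 at 1.35 (SE 0.34) and Slc38a3 at 0.79 (SE 0.23). The list holds genes of neurons as well as of astrocytes, and the 12 neuron genes above fell with it. Slc17a7 is in both lists. In DHI versus I/R 4 of the 15 rose and 0 fell, where 11.5% of all probes were called higher. Without DHI 1, 9 of the 15 rose and 1 fell, where 26.2% were called higher. Without scaling between arrays 0 rose and 3 fell, where 29.8% of all probes were called lower and 357 of 23747 higher. These falls were thus no more frequent than among all probes. Among 6 genes of GABA and glycine uptake, Slc6a13, a GABA transporter of the meninges and vessels, rose by 2.15 (SE 0.70), and Abat, the GABA transaminase, fell by 1.1 (SE 0.34). Slc6a9, a glycine transporter, was at -0.35 (SE 0.28).

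Among 9 further connexins and pannexins, 3 rose and 2 fell in I/R versus Sham. Of all tested probes, 20.8% were called higher and 22.3% lower. Gjb2, the connexin Cx26, rose by 3.39 (SE 0.92) and Gja4, the vascular connexin Cx37, by 1.55 (SE 0.35), while Panx2, a pannexin, fell by 2.07 (SE 0.60) and Gjd2, the neuronal connexin Cx36, by 1.36 (SE 0.34). In potassium and ion handling, 1 of 9 genes rose and 2 fell, against the same shares of all probes. Fxyd1, a regulator of the sodium pump, rose by 1.82 (SE 0.43), Kcnj16, a potassium channel, was at 0.92 (SE 0.65), Fxyd7, a relative of Fxyd1, fell by 2.74 (SE 0.54), and Kcnj10, the channel Kir4.1 of astrocytes, fell by 1.12 (SE 0.38) on a probe that was well above background on 8 of the 9 arrays.

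Of 14 transcription factors linked to astrocytes, 2 rose and 2 fell (median -0.27). In I/R versus Sham, 20.8% of all tested probes were called higher and 22.3% lower. Zbtb20 rose by 1.07 (SE 0.28) and Nfia by 0.72 (SE 0.28), while Hes5, a target of Notch signaling, fell by 1.52 (SE 0.59) and Rorb, a nuclear receptor, by 1.35 (SE 0.47). Of 27 other astrocyte-enriched genes, 9 rose and 3 fell, and 15 were not called (median -0.02). Pla2g7, a secreted phospholipase, rose by 1.98 (SE 0.50) and Mertk, a phagocytic receptor also found on microglia, by 1.72 (SE 0.41), and Dio2, the enzyme that activates thyroid hormone, fell by 1.59 (SE 0.53) and Slco1c1, a thyroid hormone transporter, by 0.99 (SE 0.28). Genes used as astrocyte markers rose, fell, or were not called within the same arrays. All tested probes showed such a mix as well, with 43.1% called, so it is not particular to these markers.

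**Figure D4:**
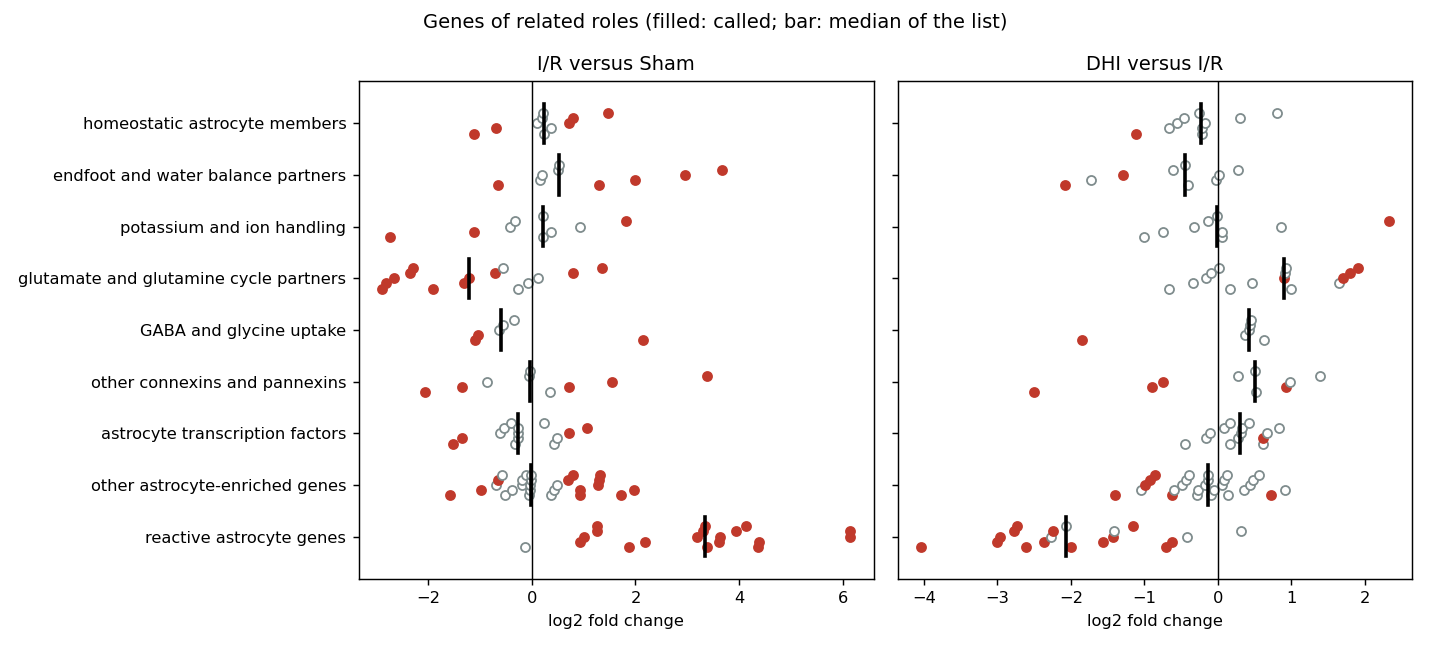
Log2 fold change (x axis) of every tested gene of the homeostatic list, the lists of related roles, and the reactive list (y axis) in I/R versus Sham and DHI versus I/R. Filled red points were called, open points were not, and the black bar is the median of the list. In I/R versus Sham the median was 0.23 for the homeostatic genes, 3.34 for the reactive genes, and -1.21 for the glutamate and glutamine cycle.

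A promoter sequence is shown for Gja1 and Aldh1l1, which both rose in I/R versus Sham, and for Slc1a2 and Aldoc, which both fell. Those of Aqp4 are not shown here. RefSeq (GRCr8) gave 15 windows, some of them overlapping, for 9 of the 10 genes. In the 250 bases before the transcript start, 4 motifs were searched on both strands. The AP-1 letters TGANTCA were in 6.34% of all 33469 windows of this length and in 1 of the 15, that of Gja1, where the match TGAGTCA began 58 bases before the start and is in capitals. The SOX letters ACAAAG were in 16.3% of all windows and in 5 of the 15, of which 3 were windows of Slc1a3 and the others of Aqp4 and Gjb6. ACAATG was in 11.1% of all windows and in 0 of the 15, and the NFI letters TTGGC were in 40.3% and in 7. The windows printed for Aldh1l1, Slc1a2, and Aldoc held 0 of these motifs, while a second window of Slc1a2, not printed, held TTGGC beginning 99 bases before the start. They lie at chr20:36302314-36302563, chr4:124616970-124617219, chr3:109459859-109460108, and chr10:63715294-63715543, all on the plus strand.
Gja1: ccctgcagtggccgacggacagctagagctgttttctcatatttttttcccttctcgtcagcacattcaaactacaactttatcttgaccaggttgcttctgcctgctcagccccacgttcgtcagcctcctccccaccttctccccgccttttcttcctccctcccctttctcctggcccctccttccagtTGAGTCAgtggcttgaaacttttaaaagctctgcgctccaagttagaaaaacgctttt
Aldh1l1: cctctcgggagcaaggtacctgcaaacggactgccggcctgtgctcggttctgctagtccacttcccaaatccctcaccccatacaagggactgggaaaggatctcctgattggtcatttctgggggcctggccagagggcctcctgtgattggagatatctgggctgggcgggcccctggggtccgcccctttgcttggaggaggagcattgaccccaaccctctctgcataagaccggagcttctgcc
Slc1a2: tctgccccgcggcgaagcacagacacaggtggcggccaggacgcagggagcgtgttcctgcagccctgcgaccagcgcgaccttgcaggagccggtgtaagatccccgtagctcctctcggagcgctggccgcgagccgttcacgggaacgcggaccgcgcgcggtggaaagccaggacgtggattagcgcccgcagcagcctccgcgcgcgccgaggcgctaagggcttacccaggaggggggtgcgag
Aldoc: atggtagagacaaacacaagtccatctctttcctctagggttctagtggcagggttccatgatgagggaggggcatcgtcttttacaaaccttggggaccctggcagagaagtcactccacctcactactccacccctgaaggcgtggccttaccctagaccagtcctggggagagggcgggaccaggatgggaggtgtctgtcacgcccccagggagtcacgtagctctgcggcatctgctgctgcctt

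**Figure D5:**
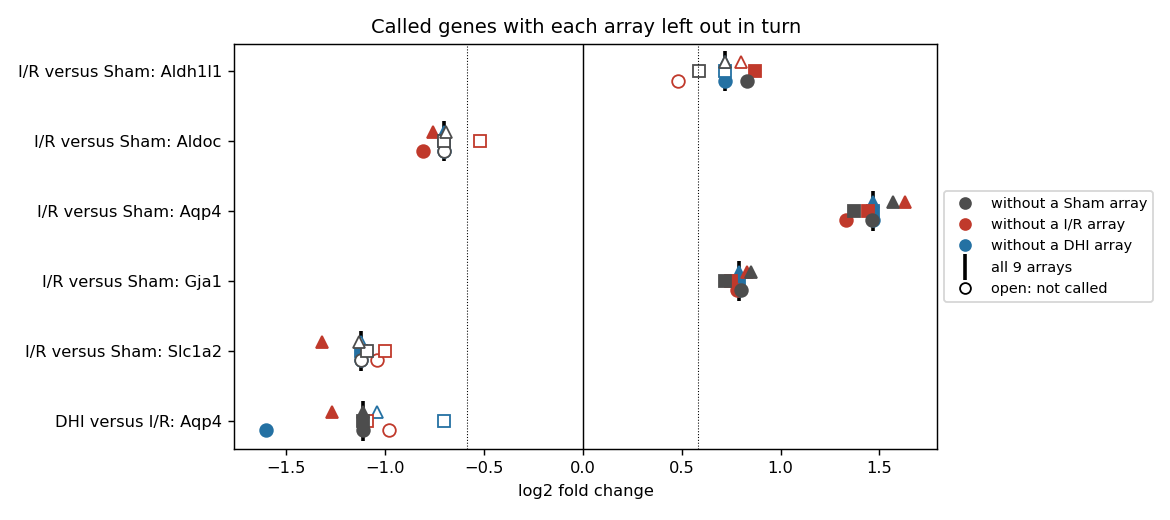
Log2 fold change (x axis) of each gene called with all 9 arrays (black bar) when 1 array is left out, for I/R versus Sham and DHI versus I/R (y axis). Colour gives the group of the array left out, shape its rat, filled points were called, open points were not, and dotted lines mark a 1.5-fold change. Aqp4 ranged from 1.33 to 1.63 and Gja1 from 0.72 to 0.85 in I/R versus Sham and both were called each time, while Aqp4 in DHI versus I/R ranged from -1.60 to -0.70.

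Among the 5 genes called in I/R versus Sham, Aqp4 and Gja1 were called whichever array was left out (9 of 9 times). Aldoc was called 5 of 9 times, Aldh1l1 4, and Slc1a2 3. The number of members called was 2 without Sham 2 and 2 without Sham 3, and 3 without Sham 1, without I/R 1, and without I/R 2. The share of all probes called in these fits was 34.4%, 36.1%, 39.0%, 31.7%, and 33.6%, in the same order, against 43.1% with all arrays.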

How the data were processed

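The data are 9 one-color arrays, 3 rats each in Sham, I/R, and DHI, grouped by the sample labels. The authors deposited the spot intensity of each array from Agilent Feature Extraction 10.7.1.1 (per the labels), after background correction inside each array and before any scaling. A table of log2 values for the series was deposited as well, which correlated with quantile-normalized log2 intensities at r = 0.99953 on each array and had a median of 7.57 to 7.58. It was used as an alternative. Probe positions are on rn4, as in the files, without exon annotation. The number of value columns not used was 0.

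Control spots and spots marked as outliers (392 to 725 an array) were left out, and spots of a probe were averaged on the log2 scale after subtraction of the array's 75th percentile. A probe was well above background on an array if at least 50% of its spots were, and it was tested if this held on all 3 arrays of a group. Tests used limma 3.58.1 under R 4.3.3, with the data.table package (version 1.17.8), in one model of the 3 groups (lmFit and eBayes, 6 residual degrees of freedom), tested on simulated data. Differences within an array were compared by two-sided exact permutation tests, adjusted over 9 tests.

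The genes and lists were chosen with earlier results of these data known. Beside the 10 genes with all their probes, the text names Gfap, Aldoa, and of each role list the 2 highest and the 2 lowest genes in I/R versus Sham, except for a few results that are not reported here. The alternatives were quantile normalization, no scaling, normexp (offset 50), the series table, no filter, a filter over all 9 arrays, array weights, only the 2 groups compared, a block for the replicate number, the methods' t-test, the mean of all probes of a gene, an adjusted p, and leaving out each array. The slide as a block could not be fitted for DHI. Promoters and motifs came from RefSeq (GRCr8).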

Additional observations from a re-analysis of the deposited data

How the results depend on the processing

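In I/R versus Sham, 5 genes were called, 2 with an adjusted p under 0.05, and 2 to 5 with each array left out in turn, where 31.7% to 48.6% of all probes were called. Aqp4 and Gja1 were called under all 21 alternatives (1.33 to 1.66 and 0.72 to 0.99 on the log2 scale), Aldoc under 15, Slc1a2 under 14, and Aldh1l1 under 13. In DHI versus I/R, 1 gene was called with all arrays and 0 to 5 with an array left out. The count was 0 with an adjusted p, 0 with only the 2 groups compared, 0 with the methods' t-test, 2 with quantile normalization, 2 with the authors' series table, 2 with normexp, 6 with array weights, whose estimation stopped before it converged, and 8 without scaling. The share of all probes called in that comparison was 21.9% with all arrays, 3.95% to 45.2% with an array left out, 9.05% with only the 2 groups, 1.97% with the methods' t-test, 21.3% with quantile normalization, 21.4% with the series table, 20.9% with normexp, 51.4% with array weights, and 31.3% without scaling. In DHI versus Sham, 0 genes were called with all arrays and 0 to 1 with an array left out, 1 with array weights, and 1 without scaling, where 3.58%, 1.45% to 10.6%, 17.6%, and 7.11% of all probes were called. The causes of these differences were not tested. Of 630 values of single genes under an alternative, 552 kept their direction and their side of the thresholds, 28 lost a call, 24 gained one, and 26 changed sign. None of the last was called with all arrays or under the alternative that changed its sign.

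Replicate numbers are shared by the groups, but the labels do not say that a number marks a litter or a day. The deviations of same-numbered arrays from their group means correlated between -0.34 and 0.48, and 4 of 9 pairs were over 0.1, so the numbers were not taken to pair the arrays. Of 18 matches between an array and another group, 8 were best with its own number. With the replicate number as a block, 5 genes were called in I/R versus Sham, 2 in DHI versus I/R, and 0 in DHI versus Sham, where 43.8%, 26.6%, and 5.39% of all probes were called. The slide as a block was not run, because each slide holds other groups in both comparisons with DHI, while Sham and I/R lie on 1 slide.

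The following changed sign, with the range over arrays left out where it includes a change, and the value from all arrays in the first parentheses. For I/R against Sham: Glul (0.10) was -0.05 without I/R 1 (-0.05 to 0.29 over arrays left out). S100b (0.20) was -0.01 with array weights and -0.13 with the mean of all probes of a gene. Sox9 (0.21) was -0.01 with normexp background correction. For DHI against I/R: Aldoc (0.30) was -0.16 without scaling. Gja1 minus Gjb6 (-0.10) was 0.09 without DHI 2 and 0.08 without I/R 1 (-0.30 to 0.09). S100b (-0.25) was 0.04 with the mean of all probes of a gene. Sox9 (-0.18) was 0.35 with array weights and 0.32 with normexp background correction. For DHI against Sham: Aldh1l1 (0.05) was -0.22 with array weights, -0.21 without scaling, -0.22 without DHI 1 and -0.07 without Sham 2 (-0.22 to 0.22). Aqp4 (0.35) was -0.13 without DHI 1 (-0.13 to 0.77). Gja1 (0.23) was -0.03 without scaling and -0.01 without DHI 1 (-0.01 to 0.42). Gjb6 (-0.22) was 0.03 without DHI 3 (-0.48 to 0.03). S100b (-0.06) was 0.03 without Sham 3 (-0.12 to 0.03). Slc1a2 (-0.31) was 0.01 with array weights and 0.27 without DHI 1 (-0.72 to 0.27). Slc1a2 minus Slc1a3 (-0.45) was 0.17 without DHI 1 (-0.91 to 0.17). Slc1a3 (0.14) was -0.13 without scaling. Sox9 (0.03) was -0.20 with the authors' series table, -0.24 without scaling, -0.20 with quantile normalization, -0.15 without DHI 3, -0.01 without Sham 1 and -0.06 without Sham 2 (-0.15 to 0.15).

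The number of arrays, 3 a group, limits the precision of every value. Sox9, on a probe with signals of 19.6 to 52.5, is limited by its signal over background.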

Other observations

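The genes most like each member in pattern were searched by the root mean square difference of log2 values over the 9 arrays, after each gene was centred on its own mean, among 12388 other genes. This is a description over 9 arrays in 3 groups. Nearest to Aqp4 were Dhrs4 (0.08), Rhoq (0.11), and Gng5 (0.12), where the spread of Aqp4 itself over the 9 arrays was 0.78. Nearest to Slc1a2 were Traf3 (0.10), Pde4a (0.11), and Osbpl6 (0.12), with a spread of 0.69 for Slc1a2. Nearest to Gja1 were Tprkb (0.06), E2f5 (0.07), and Hsd17b4 (0.07), with Exoc6 (0.10) and Hmga1 (0.11) among the nearest to Aldoc, and nearest to Aldh1l1 were Cnpy3 (0.16), Atp2a3 (0.17), and Comtd1 (0.17). For the genes that were not called in I/R versus Sham, the nearest were Dhx38 for Slc1a3 (0.05), Taf6l for Gjb6 (0.19), Ppt2 for Glul (0.07), Map4 for Sox9 (0.13), and Hyal1 for S100b (0.07).

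The remaining marker lists gave counts in I/R versus Sham as follows. Of 8 endothelial genes 2 rose, of 6 genes of oligodendrocyte precursors 3 rose, of 6 ependymal genes 1 rose, and of 5 T cell genes 4 rose, while 0 fell in each of these lists. Of all tested probes, 20.8% were called higher and 22.3% lower, so the endothelial and ependymal rises were near the share of all probes. One of the 4 T cell genes that rose, Cd8a, was well above background on 4 of the 9 arrays, and 3 of the 5 T cell genes were so on all 9. Of 4 red blood cell genes 4 fell in I/R versus Sham (median -2.11) and 4 rose in DHI versus I/R (median 2.77), and 4 rose without DHI 1 as well (median 3.44). In DHI versus I/R, 11.5% of all probes were called higher, and 26.2% without DHI 1.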
